A study of Mus musculus with 24 samples.

Results

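The 35 genes described here make, sense or move cholesterol and long-chain fatty acids. They were listed by name from general knowledge of the pathway, but with earlier results of these data known, so counts over them are descriptive. All 35 were found among the 23991 gene symbols of the series. By role they are 7 genes of the mevalonate segment and its acetyl-CoA supply, 11 of the sterol segment, 5 regulators, 5 genes of sterol transport and export, and 7 of fatty acid synthesis. RNA had been sequenced from 24 libraries of sorted C57BL/6 mouse bone marrow cells, from 8 groups with 3 libraries each. LSK cells (lineage-negative, Sca1 and cKit positive) hold blood stem and multipotent progenitor cells, and GMP are granulocyte-macrophage progenitors. IRE1_KO_ITD mice carried Ern1(fl/fl), Vav-Cre and the Flt3-ITD allele. ITD mice carried Flt3-ITD, an internal tandem duplication in a receptor kinase gene, IRE1_KO mice carried Ern1(fl/fl) with Vav-Cre, and WT mice were wild type. Vav-Cre is active across blood cells, and Ern1 encodes IRE1α, a sensor of stress in the endoplasmic reticulum. The labels give no age or treatment of the mice, and they do not say whether the 3 libraries of a group came from separate animals. The p-values therefore measure the spread between libraries, which may be technical in part or, in the ITD groups, in full. Each of the other groups held libraries of both sexes (below), and so came from more than 1 animal.

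Cells build cholesterol from acetyl-CoA through mevalonate, farnesyl diphosphate, squalene and lanosterol. The pathway is controlled at the membrane of the endoplasmic reticulum: when sterols are low, SCAP carries the SREBP transcription factors (genes Srebf1 and Srebf2) to the Golgi, where they are cut and set free to activate genes of sterol and fatty acid synthesis. When sterols are high, INSIG proteins hold SCAP back, and oxidised sterols activate the nuclear receptor LXR, which raises export genes such as Abca1 and Abcg1 and also Mylip, whose product marks lipoprotein receptors for degradation.

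Values were FPKM (fragments scaled by transcript length and by the mapped fragments of the library), and they summed to between 510361 and 673177 per library. The number of reads is not known here; ratios between low values gave relative depths of 0.919 to 1.29, with WT LSK replicate 1 set to 1. GMP markers summed to 19203 to 32229 FPKM in GMP libraries and to 1153 to 3573 FPKM in LSK libraries, and LSK markers to 177 to 309 FPKM in GMP and 714 to 1073 FPKM in LSK, as the labels have it. Ern1 itself averaged 11.8 ± 1.01, 6.28 ± 2.21, 7.62 ± 1.04 and 4.34 ± 0.539 FPKM (SD, n = 3 each) in IRE1_KO_ITD, ITD, IRE1_KO and WT LSK, so it was higher, not lower, with the IRE1_KO labels. In GMP libraries it averaged 29.4 ± 3.38, 13.9 ± 2.08, 20.6 ± 3.48 and 9.06 ± 1.41 FPKM in the same order of genotypes. A single FPKM over the whole gene says nothing of single exons and is no check of the deletion or of the labels, so the Ern1 genotypes below are those of the labels. Xist and Y-linked genes showed that all ITD libraries were female, against 1 female and 2 male libraries in each WT group. IRE1_KO groups held 2 female libraries and 1 male library, and IRE1_KO_ITD groups 1 female library and 2 male ones. A 1ng tag stands in the headers of the 3 IRE1_KO LSK libraries and in no other header.

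The regulatory sequence of the pathway genes is shown first, because SREBP acts on their promoters. RefSeq promoter windows (assembly GRCm38.p6, from 250 bases before to 50 bases after a transcription start) were found for 27 of the 35 genes. The sterol element first described in lipoprotein receptor promoters, searched as TCACNCCAC on both strands, stood in the window of 1 of the 27 genes, Hmgcs1, and in 1.44% of all 27025 genes with a window. With at most 1 letter different from TCACCCCAC, 6 of 27 members (22.2%) held a match, against 11.1% of all genes. CCAAT, the box bound by NF-Y, a factor that works beside SREBP, was found on either strand in 21 of 27 members (77.8%) and in 41.1% of all genes. The E-box CACGTG was found in 6 of 27 members (22.2%) and in 8.09% of all genes, and AGGTCA, the repeated core of an LXR element, in 5 of 27 (18.5%) and in 18.1% of all genes. The 27025 genes were taken whether or not they are expressed in these cells, so they are not matched to the members. A match describes the letters of a window and is not a bound site.

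Windows of 5 genes are given 5′ to 3′ on the gene's strand, with CCAAT, its reverse ATTGG and the sterol element in capitals. Hmgcs1 is shown for its sterol element and Mylip as an LXR target that changed the other way in ITD against WT LSK, a call lost with sex as a covariate. Mvd, Fasn and Idi1 were chosen after their values were seen. They had the smallest p among genes that rose in ITD against WT LSK and had a single window with a CCAAT box. The presence of CCAAT in these windows was thus set by the choice. Scd2 and Sqle had a smaller p than Idi1 but did not meet it.
Hmgcs1: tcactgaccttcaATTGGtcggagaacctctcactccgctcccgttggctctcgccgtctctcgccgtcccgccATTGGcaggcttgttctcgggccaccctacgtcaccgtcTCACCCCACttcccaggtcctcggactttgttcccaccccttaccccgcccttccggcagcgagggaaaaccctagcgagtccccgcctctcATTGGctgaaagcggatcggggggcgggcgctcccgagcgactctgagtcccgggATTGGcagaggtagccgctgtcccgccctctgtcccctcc
Mvd: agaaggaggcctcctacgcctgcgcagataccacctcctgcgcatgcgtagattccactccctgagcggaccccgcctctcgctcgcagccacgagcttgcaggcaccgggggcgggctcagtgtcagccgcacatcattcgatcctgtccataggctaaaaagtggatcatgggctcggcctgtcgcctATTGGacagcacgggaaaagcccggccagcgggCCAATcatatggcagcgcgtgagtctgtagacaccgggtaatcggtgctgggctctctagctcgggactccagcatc
Fasn: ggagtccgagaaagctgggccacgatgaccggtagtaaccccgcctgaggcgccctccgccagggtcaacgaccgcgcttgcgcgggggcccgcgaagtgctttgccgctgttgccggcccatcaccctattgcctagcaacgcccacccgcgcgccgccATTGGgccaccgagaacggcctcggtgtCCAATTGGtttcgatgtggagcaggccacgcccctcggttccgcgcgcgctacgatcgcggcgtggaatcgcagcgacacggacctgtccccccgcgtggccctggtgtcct
Idi1: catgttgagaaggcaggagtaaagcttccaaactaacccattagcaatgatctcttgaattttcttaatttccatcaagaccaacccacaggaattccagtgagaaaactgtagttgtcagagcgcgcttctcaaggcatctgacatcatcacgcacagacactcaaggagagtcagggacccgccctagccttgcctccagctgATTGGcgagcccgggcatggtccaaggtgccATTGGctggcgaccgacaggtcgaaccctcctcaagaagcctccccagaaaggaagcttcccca
Mylip: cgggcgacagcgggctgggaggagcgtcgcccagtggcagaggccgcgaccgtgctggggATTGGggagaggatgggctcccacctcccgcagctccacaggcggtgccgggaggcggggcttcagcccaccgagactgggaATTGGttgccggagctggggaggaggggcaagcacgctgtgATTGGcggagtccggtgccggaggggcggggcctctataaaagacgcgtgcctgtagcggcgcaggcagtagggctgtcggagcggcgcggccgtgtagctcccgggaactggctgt
The window of Hmgcs1 lies at chr13:119690101-119690400 on the plus strand and holds 1 sterol element and 4 CCAAT boxes. Those of Mvd (chr8:122443373-122443672, minus strand) and Idi1 (chr13:8885356-8885655, plus strand) hold 2 CCAAT boxes each. The window of Fasn (chr11:120824498-120824797, minus strand) holds 3, of which a forward and a reverse one overlap, and that of Mylip (chr13:45389492-45389791, plus strand) also holds 3.

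Flt3-ITD was first set against the wild type allele in LSK cells. Many synthesis genes were higher in ITD LSK: 21 of the 35 genes rose and 1 fell, at a limma adjusted p under 0.05 over all 11955 genes tested. For all genes tested, 14.9% rose and 7.27% fell. The median log2 fold change was 0.61 for the 35 genes and 0.08 for all genes tested. Fold changes are differences of log2(FPKM + 1), a scale on which changes of low genes come out too small, and ± after them is the SE of the fit with 3 libraries per group. Where the groups of a gene are said to lie apart, this only describes its libraries. The share of all genes with groups apart in a comparison is not given here. By role, 5 of 7 mevalonate genes, 7 of 11 sterol genes, 2 of 5 regulators and 6 of 7 fatty acid genes rose, and of 5 transport and export genes 1 rose and 1 fell. Mvk, Pmvk, Tm7sf2, Nsdhl, Ebp and Dhcr7 of the cholesterol route and Fads2 were not called.

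**Figure D1:**
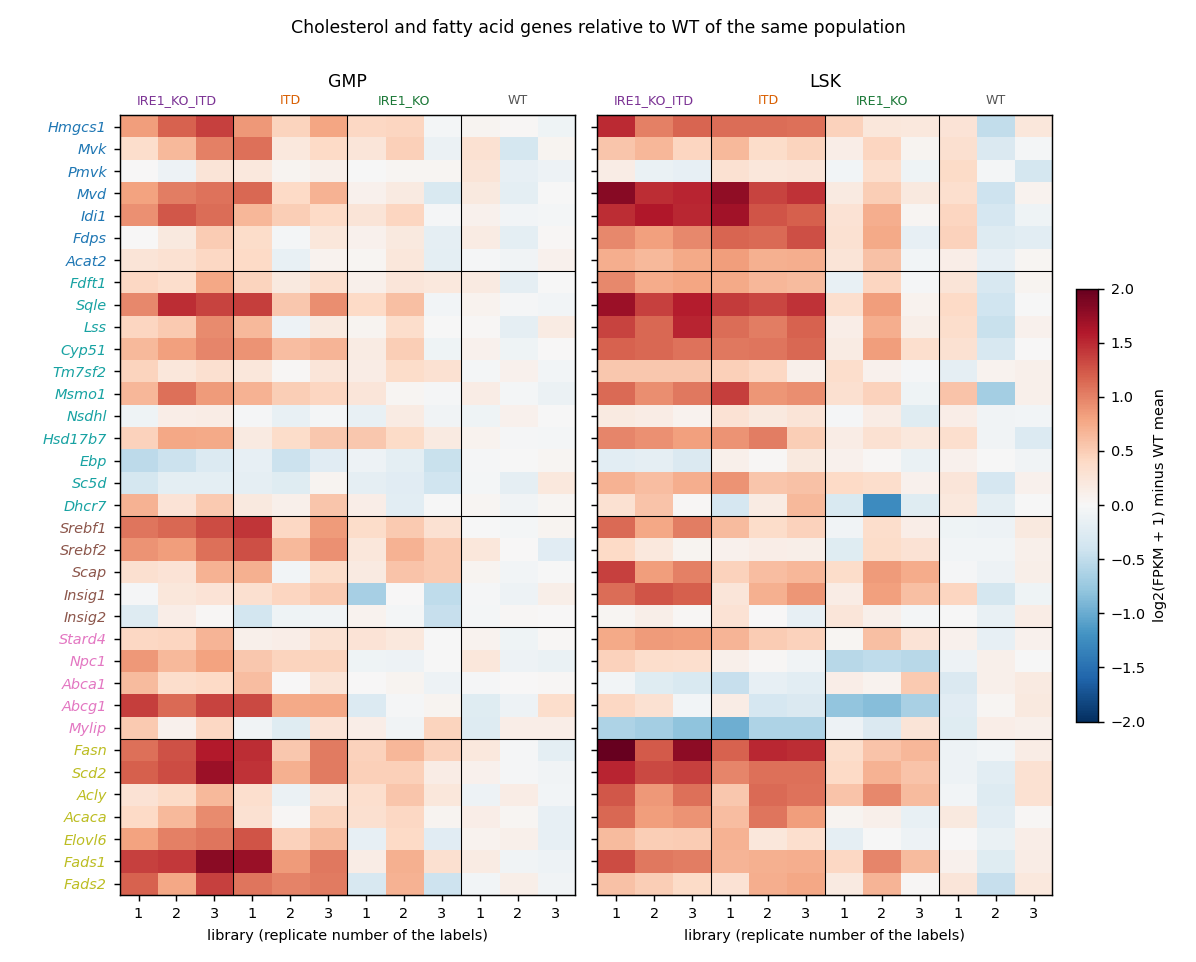
Each cell is log2(FPKM + 1) of a gene in 1 library minus the mean of the 3 WT libraries of the same population, for 35 genes (rows, in the order of their roles) and 12 GMP and 12 LSK libraries (columns). Most synthesis genes are red (higher) in IRE1_KO_ITD and ITD libraries, and Mylip is blue (lower) in those of LSK.

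In the mevalonate segment, Mvd (mevalonate diphosphate decarboxylase) had 16.6, 12.1 and 13.1 FPKM in ITD LSK, against 5.55, 2.88 and 4.43 FPKM in WT LSK. Its log2 fold change, 1.52 ± 0.19 (adjusted p = 0.000926), was the largest of the 35 genes in this comparison, and every ITD library lay above every WT library. Idi1, which makes the isomer that starts chain building, had 48.4, 35.9 and 34.2 FPKM in ITD LSK, against 19.7, 11.2 and 13.5 FPKM in WT LSK (1.38 ± 0.22, adjusted p = 0.00223). Hmgcs1, the synthase that makes HMG-CoA, had 19.5, 19.4 and 19.3 FPKM in ITD LSK, against 10.4, 5.67 and 10.0 FPKM in WT LSK (1.12 ± 0.19, adjusted p = 0.00367). The 3 ITD values of Hmgcs1 lay close together, and WT replicate 2 was the lowest library, as it was for Mvd and Idi1. Fdps (farnesyl diphosphate synthase) had 113, 110.0 and 123 FPKM in ITD LSK, against 69.2, 41.7 and 42.9 FPKM in WT LSK (1.19 ± 0.23, adjusted p = 0.0055). Acat2, a cytosolic thiolase that joins acetyl-CoA units, rose by 0.76 ± 0.14, adjusted p = 0.00516. The kinases Mvk and Pmvk did not pass the test, with 0.48 ± 0.16 and 0.26 ± 0.18.

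In the sterol segment, Sqle (squalene epoxidase) had 37.9, 36.0 and 38.9 FPKM in ITD LSK, against 18.4, 10.2 and 13.6 FPKM in WT LSK (1.39 ± 0.21, adjusted p = 0.00207). Cyp51, which removes a methyl group from lanosterol, had 14.5, 14.7 and 15.6 FPKM in ITD LSK, against 8.30, 4.98 and 6.57 FPKM in WT LSK (1.09 ± 0.18, adjusted p = 0.00295). Neither gene's groups overlapped. Lss, which closes the sterol rings, rose by 1.10 ± 0.22 (adjusted p = 0.00604), and Fdft1 (squalene synthase), Msmo1, Hsd17b7 and Sc5d, which act before and after it, rose by between 0.68 and 1.07 log2 units. The other 4 sterol genes, Tm7sf2, Nsdhl, Ebp and Dhcr7, did not pass, with log2 fold changes between 0.10 and 0.33. Dhcr7, which makes cholesterol from its dehydro precursor, had 11.6, 16.7 and 24.0 FPKM in ITD LSK, against 17.4, 12.8 and 14.8 FPKM in WT LSK, and here the groups overlapped.

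Among fatty acid genes, Fasn (fatty acid synthase) had 24.4, 30.9 and 30.5 FPKM in ITD LSK, against 9.53, 9.89 and 11.5 FPKM in WT LSK (1.39 ± 0.19, adjusted p = 0.00121). Scd2, a desaturase that puts the first double bond into stearate, had 73.0, 79.8 and 79.7 FPKM in ITD LSK, against 34.1, 31.5 and 45.1 FPKM in WT LSK (1.07 ± 0.13, adjusted p = 0.000722). Its adjusted p was the smallest among the 35 genes; the desaturase family shares sequence, so reads may be divided between its members. Acly, which releases acetyl-CoA from citrate, had 54.1, 82.5 and 80.0 FPKM in ITD LSK, against 35.8, 31.0 and 46.1 FPKM in WT LSK (0.92 ± 0.19, adjusted p = 0.00817). Acaca (acetyl-CoA carboxylase), Fads1 (a desaturase of polyunsaturated fatty acids) and Elovl6 (an elongase) rose by 0.84 ± 0.15, 0.71 ± 0.15 and 0.42 ± 0.13. Fads2, the partner desaturase of Fads1, stood at 0.60 ± 0.22 (adjusted p = 0.0734).

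**Figure D2:**
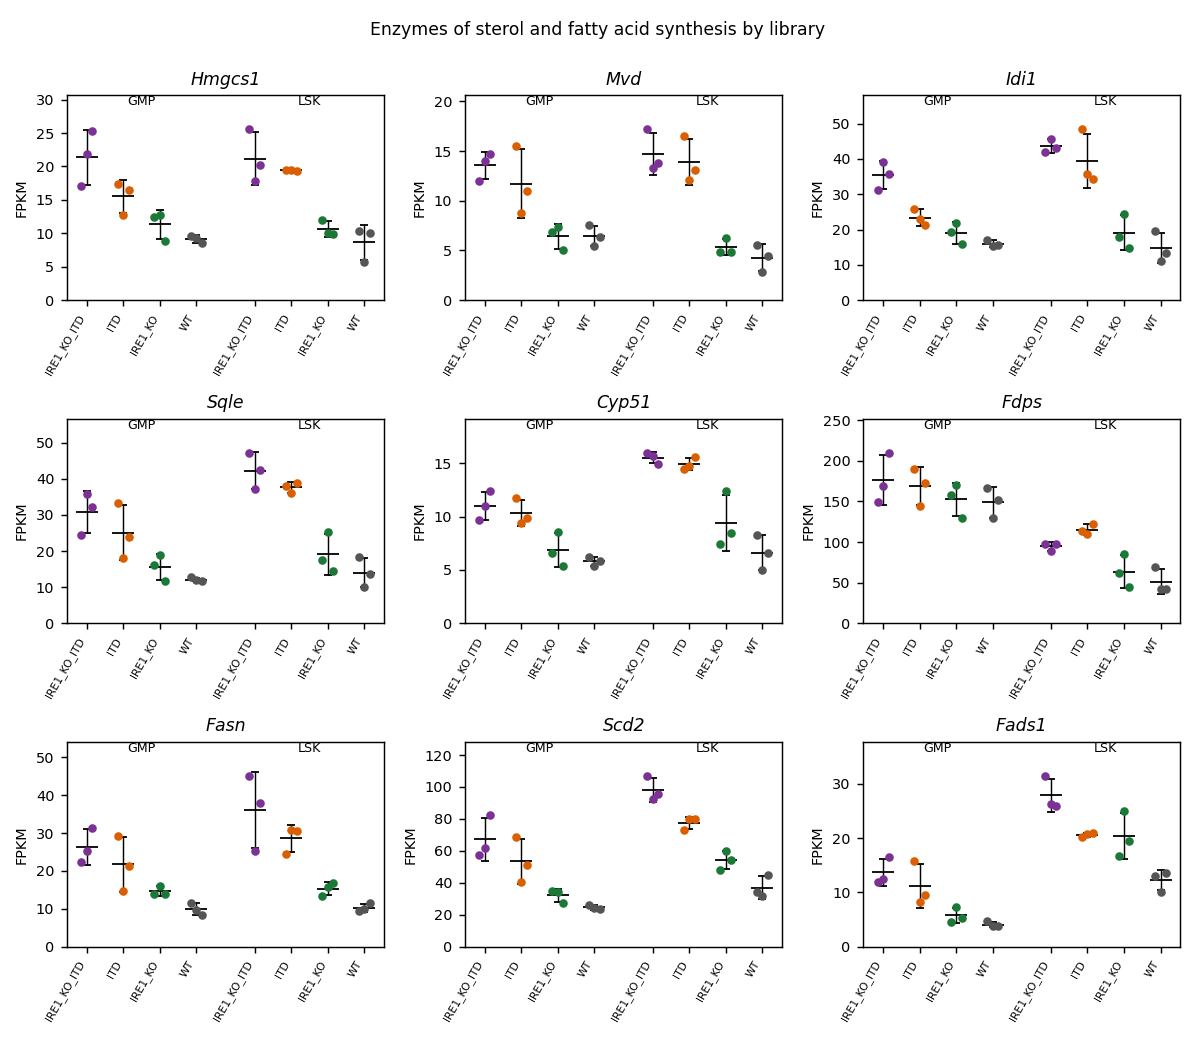
FPKM of 9 synthesis enzymes in each library (points) by genotype and population, with the mean (bar) and SD (whiskers) of 3 libraries. For each of the 9 genes the ITD points of LSK lie above the WT points of LSK, and for Fdps the GMP libraries lie high whatever the genotype. The 9 genes were all called higher in ITD against WT LSK, so their separation there was largely set by the choice.

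Of the regulators, Srebf1 and Scap rose. Srebf1, which encodes the SREBP forms that favour fatty acid genes, had 31.7, 26.3 and 28.1 FPKM in ITD LSK, against 18.9, 18.6 and 23.0 FPKM in WT LSK (0.49 ± 0.14, adjusted p = 0.0283). Scap had 23.2, 26 and 26.8 FPKM in ITD LSK, against 16.4, 15.4 and 18.2 FPKM in WT LSK (0.58 ± 0.15, adjusted p = 0.0235). Both lost the call in quantile-normalised values. Srebf2, whose product favours sterol genes, had 45.9, 47.3 and 47.0 FPKM in ITD LSK, against 41.6, 41.3 and 46.4 FPKM in WT LSK (0.12 ± 0.15, adjusted p = 0.599). Insig1, itself an SREBP target, had 9.37, 13.3 and 15.1 FPKM in ITD LSK, against 10.8, 5.86 and 7.26 FPKM in WT LSK (0.61 ± 0.23, adjusted p = 0.0783), and ITD replicate 1 lay within the WT range. Insig2 had 9.10, 7.31 and 6.38 FPKM in ITD LSK, against 7.28, 6.51 and 8.15 FPKM in WT LSK (0.04 ± 0.13, adjusted p = 0.849), with overlapping groups.

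Transport and export genes were split. Stard4, which carries cholesterol between membranes, rose by 0.55 ± 0.14 (adjusted p = 0.0197). Mylip had 4.66, 6.23 and 6.23 FPKM in ITD LSK, against 8.43, 11.2 and 10.9 FPKM in WT LSK, and was the one member to fall (-0.74 ± 0.16, adjusted p = 0.0107). The other LXR targets, Abca1 and Abcg1, stood at -0.28 ± 0.17 and -0.16 ± 0.17, and Npc1, which lets cholesterol out of lysosomes, at 0.02 ± 0.09; none of the 3 passed the test.

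With sex as a covariate, 13 of the 35 genes kept the call in this comparison, all higher. The 9 genes that lost it included Mylip, the one that had fallen, and Fdft1, Msmo1, Hsd17b7 and Sc5d of the sterol segment. Of all 11955 genes tested, 1384 were called with the covariate and 2650 without it. After quantile normalization Stard4 and Elovl6, like Srebf1 and Scap, lost the call. Leaving out 1 library at a time gave 16 to 22 calls, and the lowest count came without WT replicate 2, where Fdft1, Msmo1, Srebf1, Scap, Stard4 and Elovl6 lost theirs.

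Marker genes of other cell types also differed between these groups. Late neutrophil genes summed to 478 to 2417 FPKM in ITD LSK, against 4934 to 9989 FPKM in WT LSK, and all 10 fell. Of the erythroid genes 8 of 10 tested fell, with sums of 156 to 268 FPKM in ITD LSK, against 703 to 1439 FPKM in WT LSK, and of the B cell genes 9 of 9 tested fell, with Pax5 at 0 in all ITD LSK libraries. Of the LSK markers 4 of 10 fell (714 to 802 FPKM in ITD LSK, against 827 to 999 FPKM in WT LSK). Of 20 proliferation genes 9 rose, and they summed to 2261 to 2308 FPKM in ITD LSK, against 1650 to 1927 FPKM in WT LSK. The part of these shifts in the values of the 35 genes was not tested, and in sorted bulk cells a change in the share of a cell type and a change in RNA per cell cannot be told apart.

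Flt3-ITD on the IRE1_KO background was read from IRE1_KO_ITD and IRE1_KO LSK, which share no library with ITD and WT LSK. The 3 IRE1_KO LSK libraries carry the 1ng tag and the IRE1_KO_ITD libraries do not, so Flt3-ITD and the tag cannot be told apart in this comparison. Here 21 of 35 genes rose and Mylip fell, where 11.7% of all genes tested rose and 19.6% fell, and the medians were 0.64 for the 35 genes and -0.04 for all genes. Of the 21 genes that rose, 17 had also risen in ITD against WT LSK (81% of each list of 21). How often all genes rose in both comparisons was not counted, so this share cannot be read as particular to the pathway. Mvd had 17.2, 13.3 and 13.8 FPKM in IRE1_KO_ITD LSK, against 4.87, 6.28 and 4.89 FPKM in IRE1_KO LSK (1.31 ± 0.19, adjusted p = 0.000563). Scd2 had 107, 92.4 and 95.7 FPKM in IRE1_KO_ITD LSK, against 48.2, 59.9 and 54.5 FPKM in IRE1_KO LSK (0.85 ± 0.13, adjusted p = 0.000683). In both genes the groups lay apart, as they had without the Ern1 alleles. Fasn had 45.05, 25.3 and 37.9 FPKM in IRE1_KO_ITD LSK, against 13.4, 15.7 and 16.9 FPKM in IRE1_KO LSK (1.15 ± 0.19, adjusted p = 0.001). Srebf1 rose by 0.84 ± 0.14 (adjusted p = 0.00107) and Mylip stood at -0.66 ± 0.16 (adjusted p = 0.0113). The genes called in IRE1_KO_ITD against IRE1_KO but not in ITD against WT were Dhcr7, Insig1, Npc1 and Abcg1; Dhcr7 and Insig1 lay near the threshold (adjusted p = 0.0417 and 0.0463), and the differences of effect for Npc1 and Abcg1 are given with the Ern1 comparisons. With sex as a covariate 22 genes were called, and leaving out 1 library at a time gave 17 to 22, with Acat2, Cyp51, Msmo1, Dhcr7, Insig1, Stard4 and Fads1 lost in at least 1 of these fits. Late neutrophil genes summed to 116 to 396 FPKM in IRE1_KO_ITD LSK, against 4712 to 11745 FPKM in IRE1_KO LSK, and all 10 fell. Erythroid genes summed to 234 to 302 FPKM in IRE1_KO_ITD LSK, against 1125 to 2019 FPKM in IRE1_KO LSK, with 10 of 10 tested lower, and B cell genes to 30.7 to 36.6 FPKM, against 229 to 281 FPKM, with 9 of 9 tested lower. Of the macrophage and dendritic genes 6 of 9 tested fell and 1 rose, of the LSK markers 5 of 10 fell and of the GMP markers 3 of 10. Of 20 proliferation genes 4 rose and 0 fell. After quantile normalization 10 of the 20 rose, where 17.3% of all genes rose. The part of these shifts in the result was not tested.

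In GMP, Flt3-ITD was set against the wild type allele in the same way, and synthesis genes were again higher. Of 34 genes tested (Abca1 did not reach 1 FPKM in 3 GMP libraries), 15 rose and 0 fell, where 7.37% of the 11249 genes tested rose and 3.32% fell. The medians were 0.39 for the 34 genes and 0.07 for all genes. The 4 largest rises were those of fatty acid genes, of which 5 of 7 rose, beside 3 of 7 mevalonate genes, 3 of 11 sterol genes, 2 of 5 regulators and 2 of 4 tested transport genes. Fads1 had 15.7, 8.17 and 9.49 FPKM in ITD GMP, against 4.68, 3.81 and 3.73 FPKM in WT GMP (1.21 ± 0.23, adjusted p = 0.0103). Fads2 had 10.9, 10.2 and 10.5 FPKM in ITD GMP, against 4.45, 5.09 and 4.38 FPKM in WT GMP (1.04 ± 0.26, adjusted p = 0.0308). For both desaturases the groups lay apart. Scd2 had 68.6, 40.7 and 51.2 FPKM in ITD GMP, against 26.2, 24.1 and 23.4 FPKM in WT GMP (1.06 ± 0.19, adjusted p = 0.00801). Fasn rose by 1.02 ± 0.22 and Elovl6 by 0.78 ± 0.22 (adjusted p = 0.0168 and 0.0458), and Acly and Acaca stood at 0.16 ± 0.14 and 0.26 ± 0.17 without passing.

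Both Srebf genes rose in ITD GMP. Srebf2 had 28.4, 18.02 and 21.8 FPKM in ITD GMP, against 13.2, 11.1 and 9.29 FPKM in WT GMP (0.95 ± 0.18, adjusted p = 0.0113). Srebf1 had 28.6, 13.7 and 18.7 FPKM in ITD GMP, against 9.86, 9.64 and 10.4 FPKM in WT GMP (0.90 ± 0.20, adjusted p = 0.0206). ITD replicate 1 was the highest of the 3 ITD libraries for both and replicate 2 the lowest, and the same order was seen for Mvd, Fasn, Scd2 and Fads1. Scap had 25.3, 14.6 and 19.8 FPKM in ITD GMP, against 15.8, 14.6 and 15.1 FPKM in WT GMP (0.34 ± 0.19, adjusted p = 0.25). Insig1 stood at 0.42 ± 0.16 and Insig2 at -0.17 ± 0.16, with adjusted p = 0.122 and 0.495.

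Of the enzymes, Mvd had 15.5, 8.73 and 11.0 FPKM in ITD GMP, against 7.52, 5.47 and 6.38 FPKM in WT GMP (0.75 ± 0.20, adjusted p = 0.0395), and Sqle had 33.3, 18.1 and 24.0 FPKM in ITD GMP, against 12.7, 11.97 and 11.7 FPKM in WT GMP (0.95 ± 0.23, adjusted p = 0.0249). Cyp51 rose by 0.73 ± 0.15, Hmgcs1 by 0.70 ± 0.17, Msmo1 by 0.54 ± 0.13 and Idi1 by 0.52 ± 0.13. Abcg1 (chromosome 17, 31057675 to 31117988, mm10), which moves cholesterol out to lipoproteins, had 7.06, 4.46 and 4.52 FPKM in ITD GMP, against 1.74, 2.01 and 3.11 FPKM in WT GMP (0.95 ± 0.19, adjusted p = 0.0146), and Npc1 rose by 0.48 ± 0.12 (adjusted p = 0.0299). Mylip stood at -0.01 ± 0.19 in GMP. Ebp, on the X chromosome, had the lowest value of the 34 genes, -0.27 ± 0.11 (adjusted p = 0.131).

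The count of calls in GMP moved with single libraries. With sex as a covariate 1 of 34 members, Scd2, was called, beside 271 of all 11249 genes tested (1203 without the covariate). The share of members called was then near that of all genes. The median over the members was 0.38, close to that without the covariate. Without WT replicate 2 or WT replicate 3 the count was 3, without ITD replicate 3 it was 5, and without ITD replicate 1 it was 7; Scd2 and Fads1 were called in each of these fits. With the replicate number as a block it was 8. Late neutrophil genes summed to 2431 FPKM in ITD GMP replicate 1 and to 94685 FPKM in ITD replicate 2, against 42610 to 63109 FPKM in the 3 WT GMP libraries. Of the GMP markers 7 of 10 fell (19203 to 22932 FPKM in ITD GMP, against 30694 to 32229 FPKM in WT GMP), of the erythroid genes 7 of 10 and of the B cell genes 6 of 9 tested. None of the 20 proliferation genes was called by limma, with sums of 1935 to 2154 FPKM in ITD GMP, against 2162 to 2312 FPKM in WT GMP. The part of these values in the result was not tested.

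IRE1_KO_ITD against IRE1_KO GMP, with other libraries, also gave 15 rises and 0 falls of 34 genes, where 8.47% of all genes rose and 4.5% fell, and medians of 0.48 and 0.08. Of its 15 genes, 14 had risen in ITD against WT GMP as well (93.3% of each list of 15), and Dhcr7 was the other. The like share over all genes was not counted. Abcg1 had 7.41, 6.07 and 7.30 FPKM in IRE1_KO_ITD GMP, against 1.67, 2.17 and 2.36 FPKM in IRE1_KO GMP (1.37 ± 0.19, adjusted p = 0.00195). Npc1 had 6.02, 5.08 and 5.72 FPKM in IRE1_KO_ITD GMP, against 2.65, 2.60 and 2.85 FPKM in IRE1_KO GMP (0.83 ± 0.12, adjusted p = 0.00196). Each gene was higher in every IRE1_KO_ITD library. Idi1 had 31.2, 39.2 and 35.8 FPKM in IRE1_KO_ITD GMP, against 19.2, 22.0 and 15.8 FPKM in IRE1_KO GMP (0.87 ± 0.13, adjusted p = 0.00263). Srebf2, called in ITD against WT GMP, stood at 0.47 ± 0.18 here (adjusted p = 0.121). In this comparison, where both groups hold both sexes, 12 genes were called with sex as a covariate. Without IRE1_KO_ITD replicate 3, IRE1_KO replicate 1 or IRE1_KO replicate 3 the count was 8, and Sqle, Cyp51, Dhcr7, Srebf1, Fasn, Elovl6 and Fads2 were each lost in at least 1 fit without a library. Marker genes moved here too: of the erythroid genes 10 of 10 tested fell (10.5 to 33.8 FPKM in IRE1_KO_ITD GMP, against 334 to 753 FPKM in IRE1_KO GMP), of the B cell genes 9 of 9 tested and of the GMP markers 5 of 10, while of the LSK markers 3 of 7 tested rose and 1 fell. Late neutrophil genes summed to 1498 to 15125 FPKM in IRE1_KO_ITD GMP, against 17646 to 85198 FPKM in IRE1_KO GMP, with a median log2 fold change of -3.02 and 2 of 10 called lower. The part of these values in the result was not tested.

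Across the 4 Flt3-ITD comparisons, 11 of the 35 genes rose in each: Hmgcs1, Mvd, Idi1, Sqle, Cyp51, Msmo1, Srebf1, Fasn, Scd2, Elovl6 and Fads1. They make up 31.4% of the 35 genes, and 115 of 10959 genes tested in all 4 comparisons (1.05%) rose in each. Both counts are from the fits without a covariate. With sex as a covariate, Scd2 was the only member called in ITD against WT GMP. Leaving out 1 library at a time gave 3 to 15 members called in that comparison, so the list of 11 depends on these settings. Mvk, Pmvk, Tm7sf2, Nsdhl, Ebp, Insig2 and Abca1 were called in none of the 4. Among the 8 group means, 22 of 35 genes had their highest mean in IRE1_KO_ITD LSK. The same count was not made over all genes, so it cannot be read as particular to these 35. The highest group mean was 6.84-fold the lowest for Fads1, 7.11-fold for Fads2 and 8.25-fold for Abcg1, against 1.26-fold for Nsdhl and 1.30-fold for Pmvk, which varied little.

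The baseline of the pathway was compared between wild type GMP and LSK, with all 24 libraries in the fit. Wild type GMP had higher levels of some enzymes and lower levels of both Srebf genes, some fatty acid genes and the transport genes: 6 of 35 genes were higher and 11 lower, where 19% of the 12348 genes tested were higher and 31.3% lower. The members' shares, 17.1% higher and 31.4% lower, were close to those of all genes. Quantile normalization gave 9 higher and 10 lower, and a median-ratio size factor 8 and 10; the median over all genes was -0.11 on the FPKM scale, 0.02 after quantile normalization and 0.02 with the size factor. Fdps had 166, 129 and 151 FPKM in WT GMP, against 69.2, 41.7 and 42.9 FPKM in WT LSK (1.55 ± 0.21, adjusted p = 4.56e-06). Sc5d, a desaturase of the sterol ring, had 16.6, 15.1 and 19.95 FPKM in WT GMP, against 11.4, 7.33 and 10.1 FPKM in WT LSK (0.79 ± 0.14, adjusted p = 0.000123). Ebp, Acly, Insig1 and Mvd were higher by 0.51 to 0.55 log2 units, and for Mvd the groups overlapped; the calls of Mvd, Insig1, Acly and, among the lower genes, Scd2 were lost without 1 library or another.

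All 5 transport and export genes were lower in WT GMP. Abcg1 had 1.74, 2.01 and 3.11 FPKM in WT GMP, against 12.1, 14.7 and 16.5 FPKM in WT LSK (-2.24 ± 0.18, adjusted p = 1.29e-08). Npc1 had 3.54, 2.60 and 2.53 FPKM in WT GMP, against 6.66, 7.76 and 7.17 FPKM in WT LSK (-1.08 ± 0.10, adjusted p = 3.16e-08). No WT GMP library reached the lowest WT LSK library for either gene. Stard4, at -0.41 ± 0.13, lost the call after quantile normalization and with the size factor. Srebf2 had 13.2, 11.1 and 9.29 FPKM in WT GMP, against 41.6, 41.3 and 46.4 FPKM in WT LSK (-1.86 ± 0.17, adjusted p = 4.78e-08). The 2 sets of Srebf2 values lay far apart. Srebf1 was also lower, with 9.86, 9.64 and 10.4 FPKM in WT GMP, against 18.9, 18.6 and 23.0 FPKM in WT LSK (-0.94 ± 0.18, adjusted p = 0.000221). Fads1 and Fads2 stood at -1.38 ± 0.20 and -1.98 ± 0.25 (adjusted p = 1.26e-05 and 2.72e-06), and Mylip, Abca1, Elovl6 and Scd2 stood between -1.20 and -0.55.

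The difference of the Flt3-ITD effect between GMP and LSK was tested directly. It passed for 7 of 35 genes, 3 above 0 and 4 below, where 6.45% of all genes lay above and 7.1% below; the medians were -0.32 for the 35 genes and 0.001 for all genes. The effect was greater in GMP for Abcg1 by 1.11 ± 0.26, Srebf2 by 0.83 ± 0.24 and Npc1 by 0.46 ± 0.14 (adjusted p = 0.0116, 0.0303 and 0.0327). These 3 genes were lower in WT GMP than in WT LSK. Srebf2 averaged 22.8 ± 5.27 FPKM in ITD GMP and 11.2 ± 1.97 FPKM in WT GMP, and 46.7 ± 0.704 FPKM in ITD LSK and 43.1 ± 2.89 FPKM in WT LSK (SD, n = 3 each). The effect was smaller in GMP for Fdps, Idi1, Sc5d and Acat2, with differences of -1.01 ± 0.29, -0.86 ± 0.26, -0.80 ± 0.20 and -0.65 ± 0.21 (adjusted p = 0.0291, 0.0367, 0.0148 and 0.0428). Fdps had 190.2, 144 and 173 FPKM in ITD GMP, against 166, 129 and 151 FPKM in WT GMP, while Sc5d averaged 15.7 ± 1.86 and 17.2 ± 2.49 FPKM in the same groups. Of the 18 mevalonate and sterol genes, 16 had a difference below 0 and 4 passed the test, all below 0. Of all genes 50.1% had a difference above 0. Other lists shifted too: of 20 proliferation genes 7 passed below 0 and 0 above, with a median of -0.48. Of 10 LSK markers 4 passed above 0 and 0 below, and of 10 GMP markers 3 below and 0 above. The part of these shifts in the result was not tested. Quantile normalization gave 2 of the 35 genes above and 7 below, and the size factor 3 and 8. The count fell to 2 without WT LSK replicate 2 or WT GMP replicate 3, to 3 without ITD LSK replicate 3 or WT GMP replicate 2 and to 4 without ITD LSK replicate 2, WT LSK replicate 3 or WT GMP replicate 1, and it rose to 11 without WT LSK replicate 1; Abcg1 and Sc5d were called in each of these fits.

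**Figure D3:**
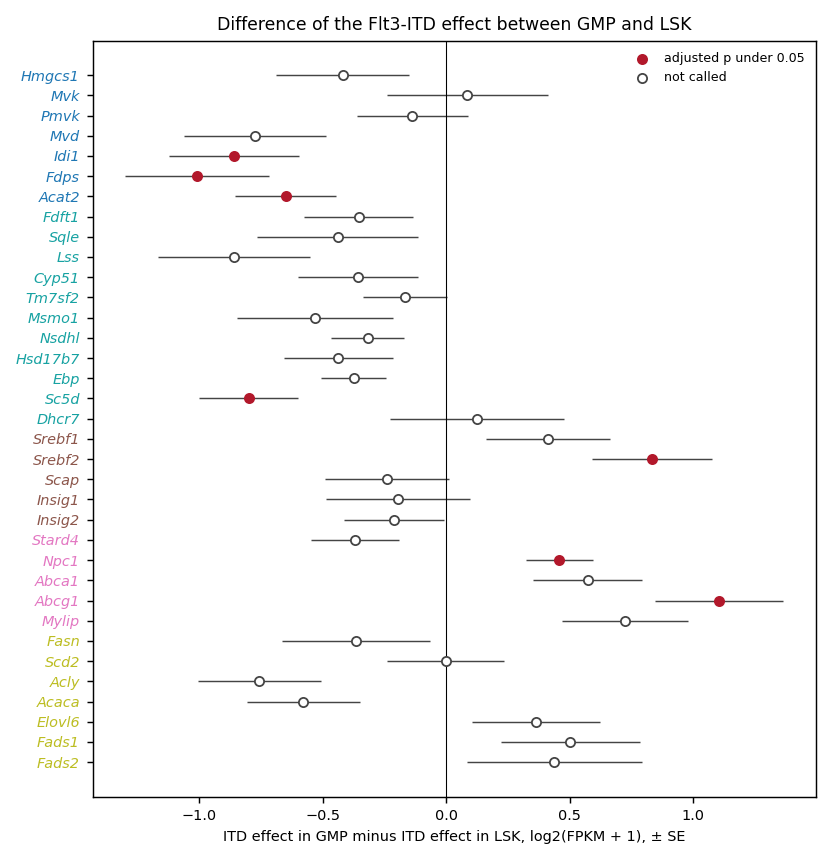
The Flt3-ITD effect in GMP minus that in LSK, on the log2(FPKM + 1) scale with its SE, for each of the 35 genes ordered by role. Filled points have an adjusted p under 0.05; most mevalonate and sterol genes lie left of 0, and Srebf2, Npc1, Abca1, Abcg1 and Mylip lie right of it.

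The Ern1 alleles were compared within each Flt3 genotype. In LSK without Flt3-ITD, 4 of 35 genes rose and 2 fell in the libraries labelled IRE1_KO, where 21% of all genes rose and 2.72% fell, so the share of members that rose, 11.4%, lay below that of all genes. The medians were 0.24 for the 35 genes and 0.14 for all genes. Of 20 proliferation genes 6 rose and 0 fell. Scap had 21.6, 30.7 and 28.5 FPKM in IRE1_KO LSK, against 16.4, 15.4 and 18.2 FPKM in WT LSK (0.65 ± 0.15, adjusted p = 0.0106). Fads1, Scd2 and Acly rose by 0.67 ± 0.15, 0.55 ± 0.13 and 0.72 ± 0.19, the last lost without IRE1_KO replicate 2, WT replicate 1 or WT replicate 2. After quantile normalization these 4 rises were lost, and by limma 0 genes rose and 5 fell; the median over all genes was then -0.08, against 0.14 on the FPKM scale. The 3 IRE1_KO LSK libraries carry the 1ng tag, so the genotype and the tag cannot be told apart there.

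Npc1 and Abcg1 fell in IRE1_KO LSK under every alternative tried for that comparison. Npc1 had 4.59, 4.78 and 4.58 FPKM in IRE1_KO LSK, against 6.66, 7.76 and 7.17 FPKM in WT LSK (-0.53 ± 0.09, adjusted p = 0.00138). Abcg1 had 7.84, 7.52 and 8.76 FPKM in IRE1_KO LSK, against 12.1, 14.7 and 16.5 FPKM in WT LSK (-0.76 ± 0.17, adjusted p = 0.00625). Neither pair of groups overlapped. Abca1 and Mylip, the other LXR targets of the list, stood at 0.24 ± 0.17 and -0.04 ± 0.16 and did not pass.

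With Flt3-ITD present, few members differed with the Ern1 alleles in LSK. In IRE1_KO_ITD against ITD LSK, 3 of 35 genes rose and 1 fell, where 13.3% of all genes rose and 6.96% fell, and the medians were 0.12 and 0.06. The share of members that rose, 8.57%, lay below that of all genes. Npc1 had 10.3, 9.42 and 9.32 FPKM in IRE1_KO_ITD LSK, against 7.80, 7.31 and 6.83 FPKM in ITD LSK (0.36 ± 0.09, adjusted p = 0.02). Srebf1 had 45.3, 35.2 and 41.7 FPKM in IRE1_KO_ITD LSK, against 31.7, 26.3 and 28.1 FPKM in ITD LSK (0.49 ± 0.14, adjusted p = 0.0301). Scap had 44.7, 30.6 and 34.6 FPKM in IRE1_KO_ITD LSK, against 23.2, 26 and 26.8 FPKM in ITD LSK (0.50 ± 0.15, adjusted p = 0.0437). For each of these 3 genes the IRE1_KO_ITD libraries lay above the ITD libraries. Ebp, a sterol isomerase, had 27.8, 28.5 and 26.4 FPKM in IRE1_KO_ITD LSK, against 34.9, 32.9 and 37.2 FPKM in ITD LSK (-0.33 ± 0.08, adjusted p = 0.0194). Insig1 had 18.1, 19.95 and 19.1 FPKM in IRE1_KO_ITD LSK, against 9.37, 13.3 and 15.1 FPKM in ITD LSK, apart but short of the threshold (0.58 ± 0.23, adjusted p = 0.099). None of the 4 calls was left without IRE1_KO_ITD replicate 1, without IRE1_KO_ITD replicate 3 or without ITD replicate 3, and 1 was left without ITD replicate 2. Scap also lost the call with sex as a covariate, the replicate block, quantile normalization, the size factor, no filter or only the libraries compared (adjusted p = 0.0552 to 0.0827). Npc1 stood at 0.17 ± 0.10 after quantile normalization (adjusted p = 0.266) and lost the call with sex as a covariate (adjusted p = 0.0744) and in the libraries compared alone (adjusted p = 0.0501), and Srebf1 lost it without the filter (adjusted p = 0.056). Late neutrophil genes summed to 116 to 396 FPKM in IRE1_KO_ITD LSK, against 478 to 2417 FPKM in ITD LSK, with 6 of 10 lower, and macrophage and dendritic genes to 18.4 to 23.9 FPKM, against 44.9 to 109.6 FPKM, with 4 of 9 tested lower; their part was not tested.

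**Figure D4:**
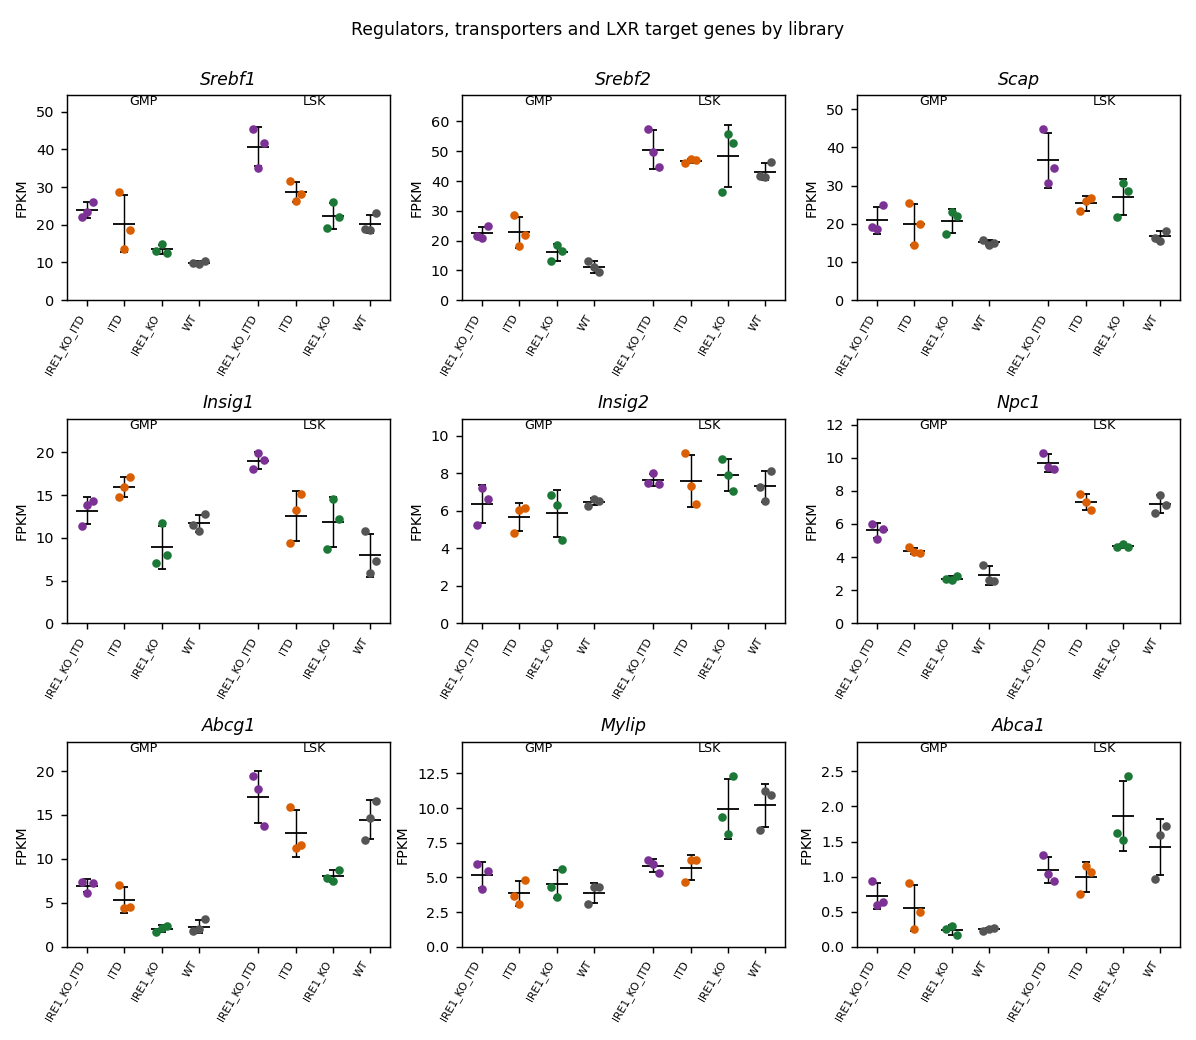
FPKM of 5 regulators and 4 transport or export genes in each library (points) by genotype and population, with the mean (bar) and SD (whiskers) of 3 libraries. Npc1 and Abcg1 are lowest in IRE1_KO and highest in IRE1_KO_ITD among the LSK groups, and Srebf2 is lower in GMP than in LSK in all 4 genotypes.

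Npc1 and Abcg1 were the 2 genes of the 35 whose Flt3-ITD effect differed between the Ern1 backgrounds in LSK, where 1.36% of all genes differed upward and 5.58% downward. For Npc1 the effect on the IRE1_KO background was 0.92 ± 0.09, against 0.02 ± 0.09 on the wild-type Ern1 background, a difference of 0.90 ± 0.13 (adjusted p = 0.00589). For Abcg1 the effects were 0.99 ± 0.17 and -0.16 ± 0.17, a difference of 1.14 ± 0.23 (adjusted p = 0.0192). Both differences rest in part on the IRE1_KO LSK libraries with the 1ng tag, whose values were the lowest of the 4 LSK groups for each gene. The Abcg1 call was lost with sex as a covariate (adjusted p = 0.128) and without IRE1_KO_ITD replicate 2, ITD replicate 3 or IRE1_KO replicate 2, leaving 1 call each time. The medians were -0.15 for the 35 genes and -0.14 for all genes, which quantile normalization moved to 0.02 for all genes.

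In GMP the Ern1 alleles gave no calls among the members. In IRE1_KO against WT GMP limma called 0 of 34 genes, where 0.0267% of all genes rose and 0.507% fell; 8 of the 34 genes, and 1351 of all 11249, had an unadjusted p under 0.05. In IRE1_KO_ITD against ITD GMP limma again called 0 of 34 genes, where 0.916% of all genes rose and 0.916% fell, with 6 members and 2039 genes at an unadjusted p under 0.05. The nearest was Idi1, with 31.2, 39.2 and 35.8 FPKM in IRE1_KO_ITD GMP, against 25.96, 22.9 and 21.3 FPKM in ITD GMP (0.58 ± 0.13, adjusted p = 0.056); the groups did not overlap. Without ITD replicate 1, 2 members were called in this comparison. No gene of the 11249, and so 0% of them, differed between Ern1 backgrounds in its Flt3-ITD effect in GMP by limma, while 0 of the 34 members and 1468 of all genes had an unadjusted p under 0.05. For the genes that fell in IRE1_KO LSK, Npc1 had 2.65, 2.60 and 2.85 FPKM in IRE1_KO GMP, against 3.54, 2.60 and 2.53 FPKM in WT GMP (-0.06 ± 0.12, adjusted p = 0.844), and Abcg1 stood at -0.08 ± 0.19 in the same comparison.

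Genes around the pathway were read from 6 lists written from general knowledge, also with earlier results of these data known. In ITD against WT LSK, 9 of 21 other genes of fatty acid and lipid synthesis rose and 0 fell, among them Elovl1, an elongase, by 0.51 ± 0.09, Acsl3, an acyl-CoA synthetase, by 0.65 ± 0.13 and Elovl7 by 0.87 ± 0.17. Of 15 genes of sterol sensing and degradation 3 rose, led by Erlin1 (0.81 ± 0.12), and of 14 genes of the isoprenoid branch 3 rose, led by Pdss1 of ubiquinone synthesis (0.72 ± 0.17), shares not far from the 14.9% of all genes that rose. Of 19 genes of cholesterol storage and transport 4 rose and 2 fell; the lipoprotein receptor gene Lrp1 rose by 1.89 ± 0.20, and Vldlr and Nceh1, a cholesterol ester hydrolase, stood at -1.08 ± 0.18 and -0.75 ± 0.10. Of 7 LXR partners and targets 1 fell, Arl4c (-1.34 ± 0.22), and of 14 genes of fatty acid oxidation 1 rose and 1 fell. The medians of these 6 lists lay between -0.18 and 0.24, against 0.61 for the 35 genes and 0.08 for all genes.

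In ITD against WT GMP, 7.37% of all genes rose and 3.32% fell. Of 21 genes of fatty acid and lipid synthesis 3 rose and 2 fell there. Of 16 genes of storage and transport 3 rose, and 3 of 13 genes of fatty acid oxidation fell. Of 15 sterol sensing genes 1 fell, and limma called 0 of 14 isoprenoid genes and 0 of 7 LXR partners. In IRE1_KO_ITD against IRE1_KO LSK, 4 of 7 LXR partners and targets fell and 1 rose, where 19.6% of all genes fell and 11.7% rose. After quantile normalization 2 of the 7 fell, where 15.3% of all genes fell. Nr1h2, which encodes LXRβ, stood at -0.46 ± 0.13 and Rxrb, a receptor that pairs with LXR, at -0.67 ± 0.15. Soat1, which stores cholesterol as esters, rose by 0.99 ± 0.13 in the same comparison, and Lrp1 by 1.63 ± 0.20. In IRE1_KO against WT LSK, where 21% of all genes rose, 8 of 15 sterol sensing genes rose and 1 fell, and 10 of 21 lipid synthesis genes rose and 1 fell; after quantile normalization 4 and 7 rose, against 11.8% of all genes. Coq2 of ubiquinone synthesis stood at 2.51 ± 0.16 and Rnf145, a sterol-responsive ubiquitin ligase, at 1.43 ± 0.11. Rxrb stood at 1.12 ± 0.15 there. Both of these LSK comparisons use the 3 IRE1_KO libraries with the 1ng tag, and their differences cannot be told apart from the tag.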

How the data were processed

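The authors deposited FPKM, 1 value per gene symbol and library for 24 libraries. Per the submitters' processing notes, STAR and Cufflinks were used with mm10; no versions are given. The labels' protocols name SMART-Seq v4 and Nextera XT while the series text names a TruSeq Stranded kit; the 2 sources disagree. FPKM is scaled by length and depth but not for a few very abundant genes, so other scalings were tried.

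Log2(FPKM + 1) was fitted with limma 3.58.1 (R 4.3.3) with a mean-variance trend, on the 12 libraries of a population, or on all 24 where populations were compared. A gene was tested if it reached 1 FPKM in at least 3 of the libraries fitted, with Benjamini-Hochberg adjustment over all of them and a call under 0.05; each adjusted p is from this test. Under 0.3 FPKM, 38.7% to 47.9% of genes stood in ratios of whole numbers up to 6 to WT LSK replicate 1 (tolerance 0.005 in log2), against 1.60% to 2.21% at other factors, which gave relative depths but not reads for nearly all genes, so no count test was run. Correlations between replicates were 0.941 to 0.966. The procedure was tested on simulated data. Tables, promoter searches and figures used Python 3.11.15, numpy 2.4.6, pandas 2.3.3 and matplotlib 3.10.9.

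The members and the 16 lists (199 of 201 entries matched, 1 by another name) were chosen with earlier results of these data known. Members were named with their library values where called for Flt3-ITD, for Ern1 or in the difference between populations, by smallest p, with Srebf1, Srebf2, Scap, Insig1 and Insig2 always; up to 3 called genes of smallest p came from each other list. Replicate numbers were not taken as pairs. Alternatives were sex as a covariate, a replicate block, leaving out each library or the 1ng libraries, fitting only the libraries compared, quantile normalization, size factors by median ratio, a pseudocount of 0.1 and no filter.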

Additional observations from a re-analysis of the deposited data

Results flagged for a closer look

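For 7 genes the Flt3-ITD effect differed between the populations, as a difference of effects (GMP minus LSK, log2) tested in the fit of all 24 libraries. It was above 0 for Abcg1 (1.11), Srebf2 (0.83) and Npc1 (0.46), with limma adjusted p = 0.0116, 0.0303 and 0.0327. It was below 0 for Sc5d (-0.80), Fdps (-1.01), Idi1 (-0.86) and Acat2 (-0.65), with limma adjusted p = 0.0148, 0.0291, 0.0367 and 0.0428.

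In LSK the Flt3-ITD effect differed between the Ern1 backgrounds for Npc1, with 0.90 (limma adjusted p = 0.00589), and for Abcg1, with 1.14 (limma adjusted p = 0.0192), the IRE1_KO background minus the wild-type one.

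In 2 of the 35 genes the groups lay apart in opposite directions in LSK and GMP, and the difference between populations was not tested. Insig1 was higher in every IRE1_KO_ITD library than in every ITD library in LSK (0.58 on the log2 scale) and lower in GMP; such opposite separation was seen in 2.86% of the members (1 of 35) and in 1.76% of the 12245 genes tested in either population. Abca1 was lower in every IRE1_KO_ITD library than in every IRE1_KO library in LSK (-0.44) and higher in GMP, where all values lay under 1 FPKM; in this comparison it was seen in 2.86% of the members and in 3.94% of those 12245 genes.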

How the results depend on the processing

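No called member changed direction under any alternative run. Counts of members called moved by over 1.5 times as follows. With sex as a covariate, 13 were called for ITD against WT in LSK (22 without it) and 1 in GMP (15 without it), and 1 for the difference between Ern1 backgrounds in LSK (2 without it). Over all genes, ITD against WT gave 1384 calls in LSK (2650 without it) and 271 in GMP (1203 without it). Without the filter the counts of members were 2 for IRE1_KO_ITD against ITD in LSK (4 with it), 9 for ITD against WT in GMP and 3 for the difference between populations (7 with it). Fitting only the libraries compared gave 6 for ITD against WT in GMP and 2 for the difference between populations; the size factor gave 11 for the difference between populations, and quantile normalization 1 in place of 0 for IRE1_KO_ITD against ITD in GMP. The cause was not tested. Deviations of same-numbered libraries within a population correlated at -0.34 to 0.10 (1 of 36 over 0.1), and in 2 of 12 same-numbered GMP and LSK libraries of 1 genotype the sexes differed. Both differences in sex lay in IRE1_KO_ITD. The 12 pairs correlated at -0.10 to 0.24, with 5 over 0.1, among them the 3 ITD pairs but not all pairs of any other genotype. In WT and ITD, which enter the tests between populations, the sexes matched in every pair. Whether those pairs share an animal is not known. The labels give no pairing, and a shared number was not read as one. With the replicate number as a block, 8 members were called for ITD against WT in GMP, and no other count moved by over 1.5 times. That block joins libraries of equal number across all genotypes, so it is not a block by animal. No fit with GMP and LSK libraries paired within a genotype was run. Leaving out 1 library at a time gave 16 to 22 and 3 to 15 members for ITD against WT in LSK and GMP, 5 to 8 and 0 for IRE1_KO against WT, 0 to 5 and 0 to 2 for IRE1_KO_ITD against ITD, and 17 to 22 and 8 to 13 for IRE1_KO_ITD against IRE1_KO. It gave 1 to 2 and 0 for the difference between Ern1 backgrounds, 14 to 17 for GMP against LSK and 2 to 11 for the difference between populations. A pseudocount of 0.1 moved no count by over 1.5 times, nor did leaving out the 1ng libraries in the 4 comparisons that could be fitted without them (ITD against WT and IRE1_KO_ITD against ITD in LSK, GMP against LSK, and the difference between populations). Depth is known only in relative terms, so no limit for low genes such as Abca1 can be given.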
